A study of Mus musculus with 6 samples.

Results

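The genes described here are 10 genes by which tuft cells are recognised and by which they sense and signal: the identity genes Dclk1 and Pou2f3, the taste signalling genes Trpm5, Gnat3 and Gng13, the cytokine gene Il25, and the eicosanoid genes Alox5, Alox5ap, Ltc4s and Ptgs1. They were chosen by name for their roles, with earlier results of these data known. All 10 were found among the 46078 gene rows of the count table. RNA was measured by sequencing of total RNA in the epithelial fraction of the mouse colon, the cells that an EDTA and DTT wash releases from the tissue. There were 3 libraries from wild type mice and 3 from Lingo2-/- mice, all aged 2 months and kept without a challenge. Lingo2 encodes a membrane protein with leucine-rich repeats and an immunoglobulin domain. The sources used here give neither the strain nor how the mutant allele was made. The labels number the libraries and do not say that each came from a separate animal, and a p-value here speaks only for the variation among these 6, part of which could be technical.

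Tuft cells are rare epithelial cells with an apical bundle of microvilli, and they sample the gut lumen with the machinery of taste cells. A receptor acts through the G protein alpha chain gustducin and phospholipase C to release calcium, which opens the cation channel TRPM5. In the small intestine the cells answer parasites with interleukin 25, which activates group 2 innate lymphoid cells, and with lipid messengers made from arachidonic acid, among them cysteinyl leukotrienes and prostaglandins.

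Between 25010618 and 28029583 reads per wild type library fell on genes, and between 7060769 and 13047682 per mutant library, so the mutant side was sequenced less deeply throughout. Mitochondrial genes took 45.3% to 48.4% and 35.7% to 39.8% of these reads. Levels are given as CPM (read counts corrected for sequencing depth), with TMM factors. A count of 3 reads, the most that a count of 0 allows, stands for 0.112 to 0.138 CPM per wild type library and for 0.207 to 0.374 CPM per mutant library. Lingo2 itself had 0, 7 and 0 reads in wild type and 1, 1 and 0 reads in mutant replicates 1, 2 and 3, too few to check the genotype labels. Floors and the counting intervals below cover counting error only. The epithelial markers Epcam (637 to 839 CPM in wild type, 617 to 746 CPM in mutant) and Cdh1 (450.0 to 655 and 398 to 511 CPM) were abundant, and none of the 9 epithelial identity genes passed the test.

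None of the 10 tuft cell genes passed the test between genotypes (edgeR quasi-likelihood test, Benjamini-Hochberg adjusted p under 0.05 over all 16757 tested genes, of which 2.57% were called). Of the 10, 8 had enough reads to be tested, and 3 of these, Trpm5, Ltc4s and Ptgs1, had an unadjusted p under 0.05, as had 18.6% of all tested genes. Limma voom also called 0 of the 8, with 4 members at an unadjusted p under 0.05. DESeq2's Wald test called 0, with 2 such members, but gave no adjusted p for Alox5ap and Ltc4s and so could not call them. The fitted value was above 0, that is higher in mutant, for 6 of the 8, and below 0 for Alox5ap and Ptgs1. The median over the 8 was a log2 fold change of 0.14, against 0.00098 over all tested genes. In a washed tissue fraction, fewer cells of a type and less RNA per cell cannot be told apart. Trpm5 and Ltc4s had every mutant library above every wild type library, which 12.3% of all tested genes had. None of the 8 had every mutant library below, which 11.8% had, and 24.1% of all tested genes had groups apart in either direction.

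**Figure D1:**
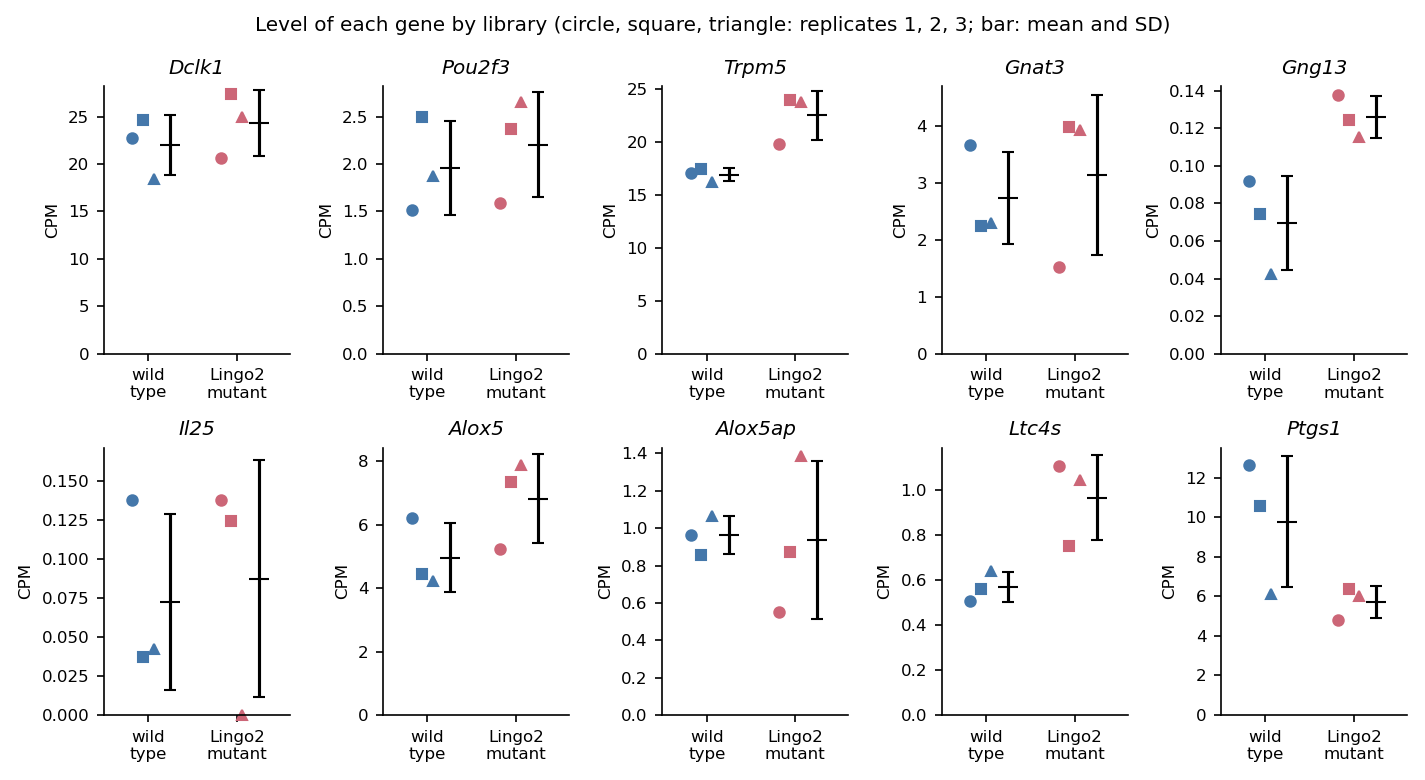
Level of each gene in CPM (vertical axes start at 0) in the 3 wild type (blue) and 3 Lingo2 mutant (red) libraries, with the mean and SD of each group as a bar. Trpm5 and Ltc4s are the tested genes whose groups do not overlap, and the high wild type values of Ptgs1 are those of replicates 1 and 2.

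Between genes, levels were compared per kilobase of exon (CPM per kb). In wild type Trpm5 stood highest at 2.64 ± 0.0945 CPM per kb (SD, n = 3), followed by Ptgs1 at 2.52 ± 0.857 and Gnat3 at 2.01 ± 0.599 CPM per kb. Dclk1 at 1.44 ± 0.208 and Alox5 at 1.21 ± 0.266 CPM per kb came next, then Alox5ap at 0.678 ± 0.0729, Pou2f3 at 0.636 ± 0.161 and Ltc4s at 0.560 ± 0.0660 CPM per kb. Gng13 (0.0551 to 0.119 CPM per kb) and Il25 (0.0350 to 0.130 CPM per kb) lay far below. In this order 3 steps separated neighbours in every wild type library, those from Gnat3 to Dclk1, from Alox5 to Alox5ap and from Ltc4s to Gng13, and all other neighbours overlapped. Trpm5 was at the 50.0th percentile of the 16677 tested genes with an annotated length in wild type, and Ltc4s, the lowest of the tested members, at the 15.4th. In mutant libraries Trpm5 was again highest (3.51 ± 0.365 CPM per kb), and Ptgs1 (1.48 ± 0.207 CPM per kb) came after Gnat3 (2.31 ± 1.04), Alox5 (1.66 ± 0.339) and Dclk1 (1.59 ± 0.225 CPM per kb), from which its range was not separate. The exon length of Dclk1, 15296 bases over all annotated isoforms, is far longer than that of the other genes (773 to 6398 bases), which lowers its level per kb where only some isoforms are made.

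**Figure D2:**
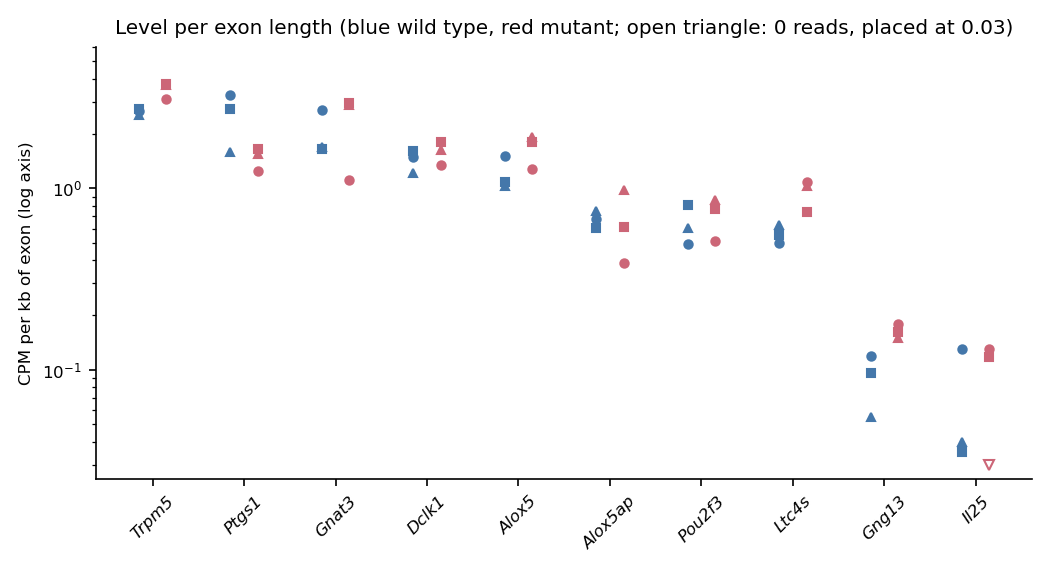
Level per exon length (CPM per kb, log axis) of the 10 genes, ordered by the wild type mean, with 1 point per library (wild type blue, mutant red). Gng13 and Il25 lie below the other 8 in all 6 libraries.

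The promoters were searched for the octamer ATGCAAAT, the DNA word to which POU2 family factors such as Pou2f3 bind, and for 3 common promoter words. RefSeq (GRCm38.p6) gave promoters for 7 of the 10 genes, Dclk1 and Gng13 with 2 each, and the 250 bases before each start were read on both strands. The octamer was in 0 of the 9, against 1.601% of 32851 promoters of the same length. The GC box GGGCGG was in 2 of the 9, that of Alox5 and 1 of Gng13 (32.7% of all promoters). The word CCAAT was in 2 of the 9, 1 of Dclk1 and that of Gnat3 (33.8%), and TATAAA in 0 (12.4%). No word overlapped one of another kind. The letters say only what stands in this window. Shown are the promoters of Trpm5, whose mutant libraries all lay above wild type, of Ptgs1, whose fitted value lay furthest below 0, and of Alox5 for its GC box, which capitals mark. They lie at chr7:143094643-143094892 (minus strand), chr2:36230176-36230425 (plus strand) and chr6:116461179-116461428 (minus strand), each written 5′ to 3′ up to the last base before the start.
Trpm5: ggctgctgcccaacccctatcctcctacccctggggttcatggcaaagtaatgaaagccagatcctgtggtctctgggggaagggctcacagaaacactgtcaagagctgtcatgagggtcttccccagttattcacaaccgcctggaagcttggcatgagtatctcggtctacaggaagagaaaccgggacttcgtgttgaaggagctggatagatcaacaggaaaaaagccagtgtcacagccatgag
Ptgs1: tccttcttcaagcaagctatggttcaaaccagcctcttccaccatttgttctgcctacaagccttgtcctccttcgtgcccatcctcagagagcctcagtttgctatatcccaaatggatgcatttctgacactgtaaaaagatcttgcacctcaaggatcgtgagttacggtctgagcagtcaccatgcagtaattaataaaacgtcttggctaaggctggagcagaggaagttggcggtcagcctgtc
Alox5: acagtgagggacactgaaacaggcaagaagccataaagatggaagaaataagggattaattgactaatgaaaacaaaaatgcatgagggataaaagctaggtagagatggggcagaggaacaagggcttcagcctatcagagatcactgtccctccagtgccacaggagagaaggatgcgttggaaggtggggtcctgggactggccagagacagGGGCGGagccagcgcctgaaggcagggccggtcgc

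The identity genes lay within their spread between libraries. Dclk1, which encodes the doublecortin-like kinase used as a tuft cell marker in the gut (chromosome 3, 55242364 to 55539068, plus strand, GRCm38), stood at 22.8, 24.7 and 18.5 CPM in wild type replicates 1, 2 and 3 and at 20.6, 27.4 and 24.99 CPM in mutant replicates 1, 2 and 3. The groups overlapped, and the log2 fold change was 0.14 ± 0.14 (SE; 95% interval −0.16 to 0.43, edgeR adjusted p = 0.627). Pou2f3, the transcription factor without which tuft cells do not form (chromosome 9, 43123939 to 43210369, minus strand), was at 1.52, 2.499 and 1.87 CPM in wild type and 1.59, 2.37 and 2.66 CPM in mutant libraries. With 19 to 67 reads per library its interval was wide, from −0.52 to 0.75 around a log2 fold change of 0.12 ± 0.29 (edgeR adjusted p = 0.866). The sign of the Pou2f3 value turned when wild type replicate 1 (−0.04) or mutant replicate 3 (−0.05) was left out.

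Dclk1 is also made by neurons, and neuronal markers are given beside it; their part in its level was not tested. Elavl4, a neuronal RNA-binding protein, was at 0.0426 to 0.0746 CPM in wild type and 0.231 to 0.689 CPM in mutant libraries. The 11 listed genes of enteric neurons and glia summed to 9.33 to 12.2 CPM in wild type and 9.10 to 12.1 CPM in mutant libraries.

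Of the taste signalling genes, the cation channel gene Trpm5 (chromosome 7, 143069153 to 143094642, minus strand) had the narrowest spread. It was at 17.02, 17.4 and 16.2 CPM in wild type replicates 1, 2 and 3 and at 19.8, 23.9 and 23.7 CPM in mutant replicates 1, 2 and 3. Every mutant library lay above every wild type library. The log2 fold change was 0.40 ± 0.11 (95% interval 0.17 to 0.64), or 1.32-fold, with an edgeR adjusted p = 0.0739, and the authors' deposited table gives 0.41 with an adjusted p of 0.101. The call depended on the fit: edgeR adjusted p was 0.0497 without mutant replicate 1 and 0.0428 with no filter on low genes, and 0.0717 to 0.224 under the other alternatives.

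Gnat3, the alpha chain of gustducin (chromosome 5, 17962549 to 18019834, plus strand), had 3.68, 2.24 and 2.30 CPM in wild type and 1.52, 3.99 and 3.93 CPM in mutant libraries. The lowest value of all was that of mutant replicate 1 and the 2 highest were those of mutant replicates 2 and 3. The log2 fold change of 0.14 ± 0.36 (−0.67 to 0.94, edgeR adjusted p = 0.874) fell below 0 without mutant replicate 2 (−0.10) or 3 (−0.09). Gng13, the gamma chain that pairs with gustducin (chromosome 17, 25717171 to 25719406, plus strand), had 2, 2 and 1 reads in wild type and 2, 1 and 1 reads in mutant libraries. It was below the filter, no library exceeded the floor of 3 reads, and no fold is given. Of its 773 exon bases, 399 are also exon of Chtf18 on the opposite strand, and reads that fall on both genes are left uncounted where counting ignores strand. The sources used here do not give the strand setting, and the level of Gng13 is uncertain.

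The further taste transduction genes gave no call either. Of 22 listed, 11 were tested, 6 with a value above 0 and 5 below 0, and their median log2 fold change was 0.0080. The smallest p was that of Gnai2, an inhibitory G protein alpha chain found in most cells, at 93.6, 91.2 and 83.4 CPM in wild type and 72.1, 71.2 and 76.8 CPM in mutant (−0.29 ± 0.09, edgeR adjusted p = 0.110). Ffar3, a receptor for short-chain fatty acids (0.597 ± 0.367, edgeR adjusted p = 0.410), Tas1r1, a chain of the amino acid taste receptor (0.625 ± 0.421, 0.456), and Gnb1, a G protein beta chain (−0.10 ± 0.09, 0.570), followed on the log2 scale. Of the 11 that were not tested, 3 had no read in any library: the sweet receptor chain Tas1r2, the bitter receptor Tas2r131 and the taste cell regulator Rgs21, named after their values were seen.

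Il25 (chromosome 14, 54932695 to 54935837, plus strand), the cytokine of the type 2 circuit, was at the limit of detection in both genotypes. It had 3, 1 and 1 reads in wild type and 2, 1 and 0 reads in mutant libraries. Pooled by genotype this was 0.0694 CPM for wild type (0.0225 to 0.162, 95% exact Poisson interval) and 0.0962 CPM for mutant (0.0198 to 0.281). At this depth no difference could be detected. Of the 17 genes listed for interleukin 25 and the type 2 circuit 11 were tested and none passed. The median log2 fold change was −0.11, with 10 values below 0 and 1, Il17rb, above 0.

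Il17rb encodes the receptor chain for interleukin 25 that tuft cells also carry. It stood at 3.36, 3.24 and 3.62 CPM in wild type and at 4.48, 4.49 and 4.51 CPM in mutant libraries, with no overlap (0.40 ± 0.18, edgeR adjusted p = 0.263). Gata3, a transcription factor of type 2 lymphocytes, was at 0.858 to 1.29 CPM in wild type and 0.374 to 0.552 CPM in mutant (−1.18 ± 0.38, edgeR adjusted p = 0.126). Rora, which group 2 innate lymphoid cells need, was at 4.05 to 6.04 and 2.96 to 3.74 CPM (−0.61 ± 0.21, edgeR adjusted p = 0.151). Beside Gata3 and Rora, 7 of 8 T cell markers fell in these libraries and their summed level was 167 to 194 CPM in wild type and 60.1 to 72.0 CPM in mutant libraries, with Cd3e at −1.32 and Cd3g at −1.99 on the log2 scale. The part of these lymphocyte transcripts in the values of Gata3 and Rora was not tested. Il33, a cytokine gene of the same list, was at 1.70 to 4.46 CPM in wild type and 1.17 to 2.24 CPM in mutant libraries. Its log2 fold change was −1.12 ± 0.41 (edgeR adjusted p = 0.178). It passed with no filter on low genes (edgeR adjusted p = 0.00290) and without wild type replicate 3 (0.0170). The cytokine genes Il13, Il4, Il5 and Il9, named after their values were seen, were all below the filter.

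The leukotriene genes act in sequence, and their fitted values lay on both sides of 0. Alox5, the 5-lipoxygenase that oxidises arachidonic acid (chromosome 6, 116410077 to 116461178, minus strand), was at 6.21, 4.44 and 4.22 CPM in wild type and 5.24, 7.35 and 7.87 CPM in mutant libraries. Mutant replicates 2 and 3 lay above all wild type libraries and mutant replicate 1 among them. The log2 fold change was 0.44 ± 0.21 (−0.025 to 0.91, edgeR adjusted p = 0.294). Alox5ap, the membrane protein that presents arachidonic acid to this enzyme (chromosome 5, 149264767 to 149288153, plus strand), was at 0.966, 0.858 and 1.06 CPM in wild type and 0.552, 0.872 and 1.39 CPM in mutant libraries, which thus held both the lowest and the highest value. It had 7 to 25 reads per library and a log2 fold change of −0.11 ± 0.38 (−0.94 to 0.71, edgeR adjusted p = 0.903), which became 0.24 without mutant replicate 1.

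Ltc4s, the synthase that joins leukotriene A4 to glutathione (chromosome 11, 50236461 to 50238616, minus strand), was at 0.506, 0.559 and 0.639 CPM in wild type and 1.10, 0.748 and 1.04 CPM in mutant libraries. The groups did not overlap, although the counts were only 11, 15 and 15 reads in wild type and 16, 6 and 9 reads in mutant libraries. Its log2 fold change of 0.78 ± 0.35 (95% interval 0.02 to 1.55) was the largest above 0 among the 8 tested genes, and it did not pass (edgeR adjusted p = 0.255). Pooled by genotype its level was 0.569 CPM (0.408 to 0.772, 95% exact Poisson interval) for wild type and 0.994 CPM (0.676 to 1.41) for mutant. The exons of Alox5ap, Ltc4s, Trpm5, Dclk1 and Ptgs1 each share 114 to 268 bases with a gene on the opposite strand.

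Leukocytes also make leukotrienes. Of their listed markers some were above the leukotriene genes in level, and others were near or below them. In wild type and mutant libraries Ly6g, a surface protein of neutrophils that made up most of the granulocyte sum, was at 27.2 to 77.2 and 13.1 to 31.8 CPM, Lyz2, a lysozyme of macrophages and neutrophils, at 50.6 to 61.7 and 37.9 to 87.9 CPM, and Kit, the receptor for stem cell factor, at 46.5 to 55.3 and 58.2 to 65.2 CPM. These 3 genes were named after their values were seen and do not stand for their lists. Which cells gave their reads was not tested. Of 6 mast cell genes tested, 2 had a value above 0, Kit among them (0.27 on the log2 scale), and 4 lay below 0. Other markers were lower. Of mast cell markers Cpa3, a carboxypeptidase of their granules, was at 0.448 to 0.894 CPM in wild type and 0.125 to 0.347 CPM in mutant libraries, and Ms4a2, a chain of the IgE receptor, at 0.0460 to 0.261 and 0 to 0.116 CPM. Of granulocyte markers Csf3r, a growth factor receptor, was at 0.596 to 1.04 and 0.374 to 0.965 CPM, and S100a8 at 0.460 to 1.15 and 0.138 to 0.623 CPM. Mpo and Elane had 0 reads throughout. Of macrophage markers Csf1r was at 4.81 to 8.88 and 5.31 to 8.23 CPM and Adgre1 at 1.92 to 2.54 and 1.74 to 3.24 CPM, and 1 of 10 tested, Itgax, fell (−0.99 ± 0.20). Summed over the lists, the levels in wild type and mutant libraries were 57.1 to 62.8 and 64.2 to 73.7 CPM for 10 mast cell genes, mostly from Kit, 31.4 to 80.5 and 15.7 to 33.7 CPM for 11 granulocyte genes, and 75.5 to 91.9 and 60.8 to 118 CPM for 11 macrophage and dendritic cell genes. The part of these cells in the levels of Alox5, Alox5ap and Ltc4s was not tested.

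Ptgs1, cyclooxygenase 1, which makes the precursor of all prostanoids (chromosome 2, 36230426 to 36252272, plus strand), had the fitted value furthest below 0 of the 8 tested genes. It was at 12.6, 10.6 and 6.13 CPM in wild type replicates 1, 2 and 3 and at 4.83, 6.36 and 6.02 CPM in mutant replicates 1, 2 and 3. Wild type replicate 3 lay within the range of the mutant libraries, and wild type replicates 1 and 2 stood above all others. The log2 fold change was −0.79 ± 0.26 (95% interval −1.38 to −0.20), a level 0.578-fold that of wild type, with an edgeR adjusted p = 0.146, and the authors' deposited table gives −0.78 with an adjusted p of 0.0626. Without wild type replicate 3 the value was −1.04 (edgeR adjusted p = 0.00961), and with no filter on low genes −0.81 (edgeR adjusted p = 0.000322). Without wild type replicate 1, the library with the highest level, it was −0.57 (edgeR adjusted p = 0.302), the value nearest to 0. The other alternatives gave an adjusted p of 0.0668 to 0.3698.

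Fibroblasts make Ptgs1 too, and stromal genes are given beside it. The 6 libraries, ordered from high to low Ptgs1, were wild type 1, wild type 2, mutant 2, wild type 3, mutant 3 and mutant 1. The same order was held by 113 of the 16757 tested genes (0.674%, Ptgs1 included), and by 5 listed genes found after the values were seen. These were the collagen genes Col1a1, Col1a2 and Col3a1, which are 3 of the 8 stromal genes, and Ptgis and Il33 from other lists. The other stromal genes, Pdgfra, Dcn, Lum, Acta2 and Myh11, had other orders, and Myh11 was highest in mutant replicate 2 (1.74 CPM). Col1a1, a chain of collagen type I, was at 84.1, 73.1 and 28.6 CPM in wild type and 16.1, 35.0 and 23.8 CPM in mutant (edgeR adjusted p = 0.284). Pdgfra, a fibroblast receptor, was at 0.681 to 0.970 CPM in wild type and 0.0689 to 0.623 CPM in mutant (edgeR adjusted p = 0.227). Summed over 8 stromal genes the level was 973, 877 and 330 CPM in wild type and 224, 497 and 289 CPM in mutant libraries. None of the 8 passed, 7 of 8 had a value below 0 and their median log2 fold change was −1.003. Platelets also carry cyclooxygenase 1. Their defining genes Pf4 (0.681 to 1.47 CPM in wild type, 0.414 to 1.62 CPM in mutant) and Ppbp (0 to 0.186 and 0 to 0.249 CPM) were low. Summed over 6 platelet genes the level was 6.26 to 8.02 CPM in wild type and 6.20 to 9.60 CPM in mutant libraries. The part of either cell type in the Ptgs1 difference was not tested.

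**Figure D3:**
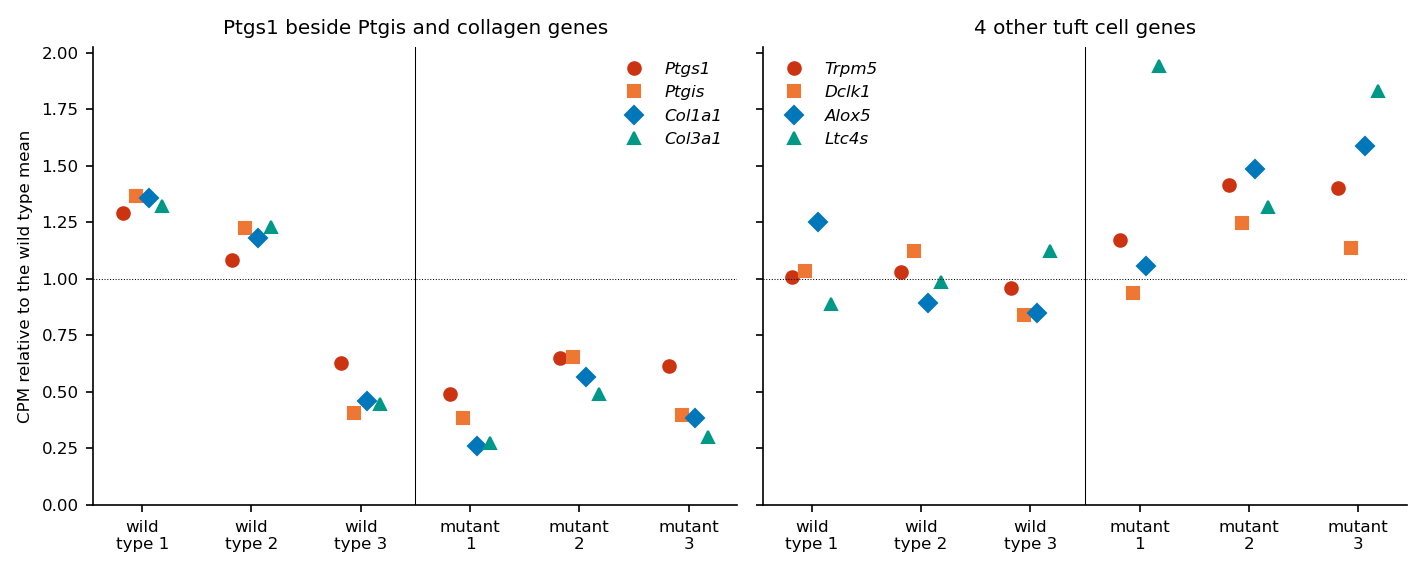
Level in each library divided by the wild type mean of the gene (vertical axis from 0), on the left for Ptgs1, the prostacyclin synthase gene Ptgis and the collagen genes Col1a1 and Col3a1, on the right for Trpm5, Dclk1, Alox5 and Ltc4s. Ptgis, Col1a1 and Col3a1 are shown because they have the library order of Ptgs1, so their likeness to it was set by the choice. Stromal genes with other orders are not shown. The 4 genes on the left were high in wild type replicates 1 and 2, whereas Trpm5 and Ltc4s were higher in all 3 mutant libraries than in wild type.

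Among 22 further genes of eicosanoid synthesis and breakdown, 20 were tested, 1 fell and none rose. Their median log2 fold change was −0.14, and 15 of the 20 values were below 0. The gene that fell was Ptgs2, the inducible cyclooxygenase 2, which stood at 6.26, 5.67 and 3.58 CPM in wild type and 1.45, 3.12 and 1.504 CPM in mutant libraries. The groups did not overlap and the log2 fold change was −1.41 ± 0.32 (edgeR adjusted p = 0.0434). The call ended when wild type replicate 1 (0.112) or 2 (0.105) or mutant replicate 1 (0.147) or 3 (0.163) was left out, and with limma voom (adjusted p = 0.0681). Wild type replicates 1 and 2 were highest, as in the summed level of the 8 stromal genes, though not in each of them, and the part of stromal cells in Ptgs2 was not tested.

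The enzyme that inactivates prostaglandins, Hpgd, was at 130.3, 118 and 139.8 CPM in wild type and 113, 97.3 and 87.0 CPM in mutant (−0.38 ± 0.11, edgeR adjusted p = 0.0966), and passed with no filter on low genes (0.00479). The prostaglandin importer Slco2a1 was at 147, 88.3 and 111 CPM in wild type and 90.5, 81.3 and 80.9 CPM in mutant (−0.46 ± 0.17, edgeR adjusted p = 0.190), and passed without wild type replicate 2 (0.0334) and with no filter (0.000388). Under the other alternatives the adjusted p lay above 0.05 for both genes. Ggt5, which trims leukotriene C4 to leukotriene D4, was at 1.15 to 1.53 CPM in wild type and 0.276 to 1.04 CPM in mutant (−1.17 ± 0.42, edgeR adjusted p = 0.163). Hpgds, the prostaglandin D synthase of tuft cells, named after its values were seen, was at 7.03 to 11.1 CPM in wild type and 7.85 to 11.03 CPM in mutant (0.25 ± 0.20, edgeR adjusted p = 0.554). None of these 4 genes passed the test over all genes.

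Of 14 eicosanoid receptors, 10 were too low to be tested and none of the other 4 passed. Ptger1, a receptor for prostaglandin E2, was at 15.3, 16.5 and 15.5 CPM in wild type and 16.96, 24.7 and 21.1 CPM in mutant (0.39 ± 0.13, edgeR adjusted p = 0.142). The receptors Ptger3 (−0.46 ± 0.36, edgeR adjusted p = 0.545) and Ptger4 (0.13 ± 0.12, 0.575) and the leukotriene receptor Cysltr2 (0.02 ± 0.32, 0.980) overlapped between genotypes.

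The further tuft cell genes lay on 1 side. Of 22 listed, 21 were in the table and 18 were tested, among them Il17rb, given above with the type 2 circuit. None passed the test, and all 18 fitted values were above 0, with a median log2 fold change of 0.25 and 7 at an unadjusted p under 0.05. Over all 16757 tested genes 18.6% had such a p, and 8403 had a value above 0. All tested genes of the list lay above 0 in only 3 of the 14 alternatives, and 14 or more did in each. Cd300lf, the nearest to 0, was the gene that turned below 0 with upper quartile factors. With no filter on low genes 2 passed, Bmx and Siglecf. The listed genes share cells and libraries and are not independent of each other, and a higher value for tuft cell genes in these same libraries was known when the list was made. The 21 genes summed to 223, 215 and 202 CPM in wild type and 248, 252 and 261 CPM in mutant libraries, of which Hepacam2, made by tuft and other secretory cells, gave 76.7 to 87.8 and 95.8 to 100.4 CPM. Of the 18, 6 had every mutant library above every wild type library, which 12.3% of all tested genes had.

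**Figure D4:**
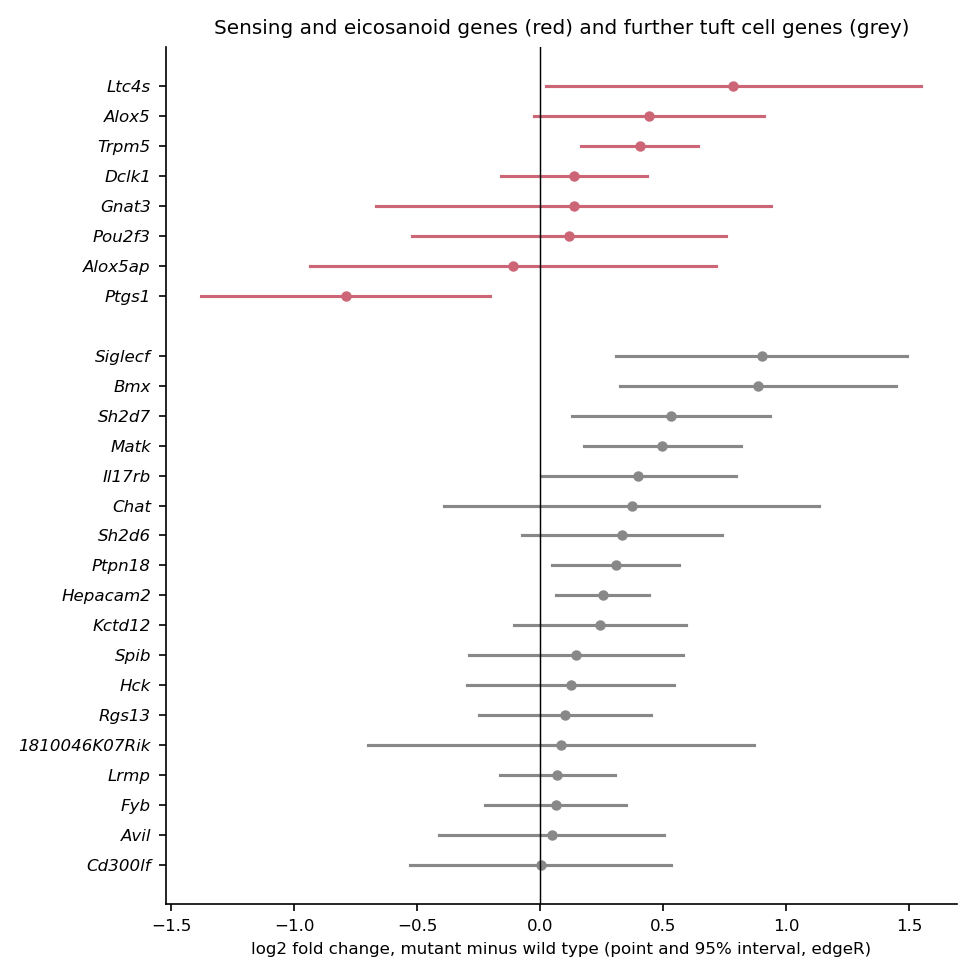
Log2 fold change, mutant minus wild type, with its 95% interval, for the 8 tested sensing and eicosanoid genes (red) and the 18 further tuft cell genes (grey). All grey points lie above 0 in the fit shown, which held in only 3 of the 14 alternatives. Ptgs1 and Alox5ap are the red points below 0.

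By the smallest p these were Bmx, a kinase of the Tec family, Matk, a kinase that restrains Src family kinases, Siglecf, a sialic acid binding receptor of tuft cells and eosinophils, and Hepacam2. Bmx was at 2.30, 1.94 and 1.49 CPM in wild type and 2.96, 3.24 and 4.51 CPM in mutant (0.89 ± 0.26, edgeR adjusted p = 0.0951). Matk was at 6.67, 6.34 and 6.01 CPM in wild type and 8.34, 8.60 and 9.95 CPM in mutant (0.49 ± 0.15, edgeR adjusted p = 0.100). Siglecf was at 2.07, 1.86 and 1.53 CPM in wild type and 2.34, 3.99 and 4.16 CPM in mutant (0.90 ± 0.27, edgeR adjusted p = 0.104). For Bmx, Matk, Siglecf and Hepacam2 (0.25 ± 0.09, edgeR adjusted p = 0.146) the groups did not overlap. Beside these, 2 of 8 goblet cell genes rose, Spdef (0.84 ± 0.10) and Spink4 (1.01 ± 0.16), and none fell. The other 6 did not pass, with values of 0.05 for Muc2, 0.73 for Fcgbp, 1.13 for Clca1, 0.0013 for Agr2, −0.42 for Zg16 and −0.32 for Tff3 on the log2 scale. The 8 genes summed to 13515 to 16322 CPM in wild type and 16268 to 22792 CPM in mutant libraries. Among 8 enteroendocrine genes Gcg was the 1 that fell, while Chga stood at 135 to 174 CPM in wild type and 96.6 to 157 CPM in mutant libraries. The part of these other secretory cells in the tuft cell values was not tested.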

How the data were processed

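The authors deposited 1 table of raw counts, whole reads per gene in each of 6 libraries. The submitters' processing notes name Trimmomatic 0.39, STAR, HTSeq and DESeq2 and the build GRCm38. Which annotation release was used, and whether counting used strand, is not given in the sources used here. The 5 summary lines of the count table name no gene and were left out. In a second deposited table the authors give normalized signal per library, a log2 fold change with its error, a test score and p-values for 14338 genes, 6 of the 10 members among them, and only its fold changes and adjusted p-values are quoted.

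Counts were tested with edgeR 4.0.16 (R 4.3.3): filterByExpr, TMM, robust quasi-likelihood F test on genotype, 16757 genes, Benjamini-Hochberg adjustment, threshold 0.05. A standard error is the log2 value over the square root of F. On simulated counts over 16757 genes for this comparison, 86 of 100 genes changed 2-fold and 100 of 100 changed 4-fold were recovered, with 13 false calls. Symbols, positions and exon lengths came from GENCODE M21 (GRCm38), and 194 of 195 listed genes were matched. Replicates were compared by chi-square over genes, and no pair agreed within sampling noise (8.48 to 22.0 per degree of freedom). No columns were left unmapped.

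The 10 members and all lists were chosen with earlier results of these data known. Named genes are the members, up to 4 genes of each pathway list by smallest p, called ones first, and the first 2 genes of each cell type list with up to 2 further called ones. Not every gene that this rule takes is described in the text. Alternatives were other scaling (DESeq2 1.42.0 size factors, upper quartile), other filters, the replicate number as a block, scaling without mitochondrial, haemoglobin or immunoglobulin genes, DESeq2's Wald test, limma 3.58.1 voom with sample weights, and leaving out each library.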

Additional observations from a re-analysis of the deposited data

How the results depend on the processing

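Of the 10 tuft cell genes 0 passed in 11 of the 14 alternatives, among them the 7 that changed the scaling, its gene set, the block, the stricter filter (6 of the 10 tested) or the test. DESeq2's Wald test gave no adjusted p for Alox5ap and Ltc4s. With no filter on low genes 2 passed, Trpm5 and Ptgs1, and with 1 library left out the count was 0 to 1 (Ptgs1 without wild type replicate 3, Trpm5 without mutant replicate 1). Over all genes the count of 430 became 1493 with no filter and 672 with DESeq2's Wald test, and 174 to 674 with 1 library left out. Of the genes in the further pathway lists, cell type lists not counted, 1 passed, 6 with no filter, 0 with limma voom and 0 to 3 with 1 library left out. The fitted value was above 0 for 4 to 7 of the tested members. The sign turned for Pou2f3 without wild type replicate 1 or mutant replicate 3 (−0.054 to 0.34 with 1 library left out), for Gnat3 without mutant replicate 2 or 3 (−0.10 to 0.53) and for Alox5ap without mutant replicate 1 (−0.51 to 0.24). The cause was not tested. The fit with the replicate number as a block also called 0 of the 10 genes, and same-numbered libraries did not deviate together in every pair (correlations −0.13, 0.13 and −0.02). Alox5ap, Ltc4s, Gng13 and Il25, with at most 25 reads in any library, are limited by depth. So are Pou2f3 on the mutant side (23, 19 and 23 reads) and Gnat3 in mutant replicate 1 (22 reads).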
